A study of Mus musculus with 12 samples.

Results

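The genes described here are 9 members of the Nodal branch of TGF-beta signalling: Lefty1 and Lefty2, Nodal, Tdgf1, Smad7, Skil, Smad2, Smad3 and Acvr2b. They were taken by name, as members of the pathway, from 23496 genes in the deposited table of transcript levels, and all 9 had an entry. The choice was made with earlier results of these data known. Levels were measured by RNA-seq in 12 libraries of mouse embryonic stem cells (ESCs, cultured cells of the early embryo), 4 in each of 3 groups. Wild-type cells were grown in 2i, a serum-free medium with CHIR99021, an inhibitor of the kinase GSK3, at 3 µM, PD0325901, an inhibitor of the kinase MEK, at 1 µM, plus 1000 units/mL of the cytokine LIF. Cells labelled as knockout for the transcription factor Tfcp2l1 were grown in the same 2i medium. Wild-type cells of the third group were grown with 15% serum of fetal calves (FBS) and the same amount of LIF, 1000 units/mL, so all 3 groups had LIF. The labels do not say whether the knockout is 1 clone or whether replicates are separate cultures. The p-values therefore measure only how far these libraries scatter, which may be technical.

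Nodal is a secreted ligand of the TGF-beta family. It binds activin receptors, among them Acvr2b, with the help of a cell-surface co-receptor, Cripto, encoded by Tdgf1. The active receptor phosphorylates Smad2 and Smad3, which join Smad4 and act on target genes with partners such as Foxh1. The Lefty proteins are secreted inhibitors that block Nodal and its co-receptor, and their genes are themselves switched on by the pathway, so they are often read as its output in ESCs and in the embryo. Smad7 blocks the receptor from within the cell, and Skil encodes SnoN, a repressor that binds Smad proteins.

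Levels are given in FPKM, which scale the fragments of a transcript by its length and by the mapped fragments of the library, so levels of different genes can be compared. The FPKM sum per library was 347772 to 358340, and the read depth is unknown. Differences were tested on log2(FPKM + 1) with limma over the 12329 genes that reached 1 FPKM in 4 or more libraries, with Benjamini-Hochberg adjustment over those genes; all 9 members passed that filter. Such log2 differences understate changes of low genes. Tfcp2l1 itself lay between 112.3 and 143.2 FPKM in wild type in 2i, between 72.0 and 84.7 in the libraries labelled knockout and between 25.8 and 37.1 in FBS; the knockout mean was 59.8% of wild type (log2 change -0.73, limma adjusted p = 0.000119). Where in the gene the knockout lies is not given in the labels, so this level does not check them. Of 8 ESC markers, among them Pou5f1 and Sox2, 4 fell in the knockout and none rose, and their summed level was 3952 to 4663 FPKM in wild-type 2i cells, 3713 to 3879 in knockout cells and 2983 to 3940 in FBS. Fibroblast markers moved with the groups: 18 of 20 rose in the knockout and none fell. Their summed level was 251.0 to 400.7 FPKM in wild-type 2i cells, 474.6 to 791.5 in knockout cells and 277.3 to 370.8 in FBS. The similar wild-type sums hide opposite moves: 10 markers were higher and 6 lower in 2i than in FBS. Col3a1 stood at 38.33 to 67.86 FPKM in wild-type 2i cells and 4.364 to 6.248 in FBS, Tagln at 3.627 to 6.23 and 28.55 to 48.83. Every knockout sum lay above every wild-type sum in 2i, so genotype and marker level go together. A call lost with the marker level in the model does not tell which of them a change follows. Of 7 visceral endoderm markers, 6, including Afp and Ttr, stayed under 1 FPKM in all 12 libraries, as did 5 of 8 streak and mesoderm markers, including Mixl1 and Mesp1. The summed level of 8 trophoblast markers was 38.2 to 57.8 FPKM in wild-type 2i cells, 60.5 to 70.6 in knockout cells and 242.0 to 307.9 in FBS. That of 7 parietal endoderm markers was 427.2 to 535.8, 368.2 to 517.9 and 216.3 to 264.7. Most of the latter sum was Sparc, at 388.7 to 494.1 FPKM in wild-type 2i cells and 126.2 to 168.4 in FBS. By count, 1 of the 7 parietal endoderm markers was higher and 4 were lower in 2i than in FBS. Of 7 trophoblast markers tested, 3 rose and 1 fell in the knockout, and 6 were lower in 2i than in FBS. Most of the trophoblast sum in 2i was Tfap2c, at 24.72 to 29.9 FPKM in wild-type and 39.38 to 44.07 in knockout cells. In FBS it was mostly Krt8 and Krt18, at 53.28 to 78.52 and 97.29 to 147.7 FPKM. The part of these other cell types in the differences between 2i and FBS was not tested. In bulk RNA, fewer cells of a type and less RNA per cell cannot be told apart.

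Promoter sequence was at hand for 4 of the 9 members (Nodal, Tdgf1, Smad3 and Acvr2b; RefSeq, build GRCm38.p6). The 250 bases before the start of Nodal and Tdgf1 are shown because both genes were lower in the knockout. They lie at chr10:61417722-61417971 (plus strand) and chr9:110946159-110946408 (minus strand). Capitals mark matches, on either strand, to 3 motifs: TGTNNATT (of the kind bound by Foxh1), CAGAC (of the kind bound by Smad proteins) and a Tfcp2l1-type motif (given by name only).
Nodal: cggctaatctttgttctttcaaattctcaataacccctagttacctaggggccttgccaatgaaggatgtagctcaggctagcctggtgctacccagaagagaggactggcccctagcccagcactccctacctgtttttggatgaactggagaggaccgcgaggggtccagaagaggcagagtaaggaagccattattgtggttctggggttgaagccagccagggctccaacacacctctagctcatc
Tdgf1: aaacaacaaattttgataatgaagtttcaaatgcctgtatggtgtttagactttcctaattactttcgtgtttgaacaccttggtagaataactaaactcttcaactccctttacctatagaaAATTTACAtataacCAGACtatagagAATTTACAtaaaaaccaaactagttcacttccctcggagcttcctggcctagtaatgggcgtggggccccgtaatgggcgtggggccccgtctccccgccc
The Tdgf1 window held AATTTACA 2 times, starting 127 and 101 bases before the start, with CAGAC between them at 113 bases, and the 3 matches did not overlap. The Nodal window held none of the 3 motifs. The Smad3 window held a match to the Tfcp2l1-type motif, CCTGGCTGGCCCTG, starting 136 bases before the start, and the Acvr2b window a Smad-type match, GTCTG (the reverse strand of CAGAC), at 233 bases. Among 32851 RefSeq promoter windows of the same length, 10.9% held TGTNNATT, 42.2% CAGAC and 24.9% the Tfcp2l1-type motif. A match describes letters only.

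**Figure D1:**
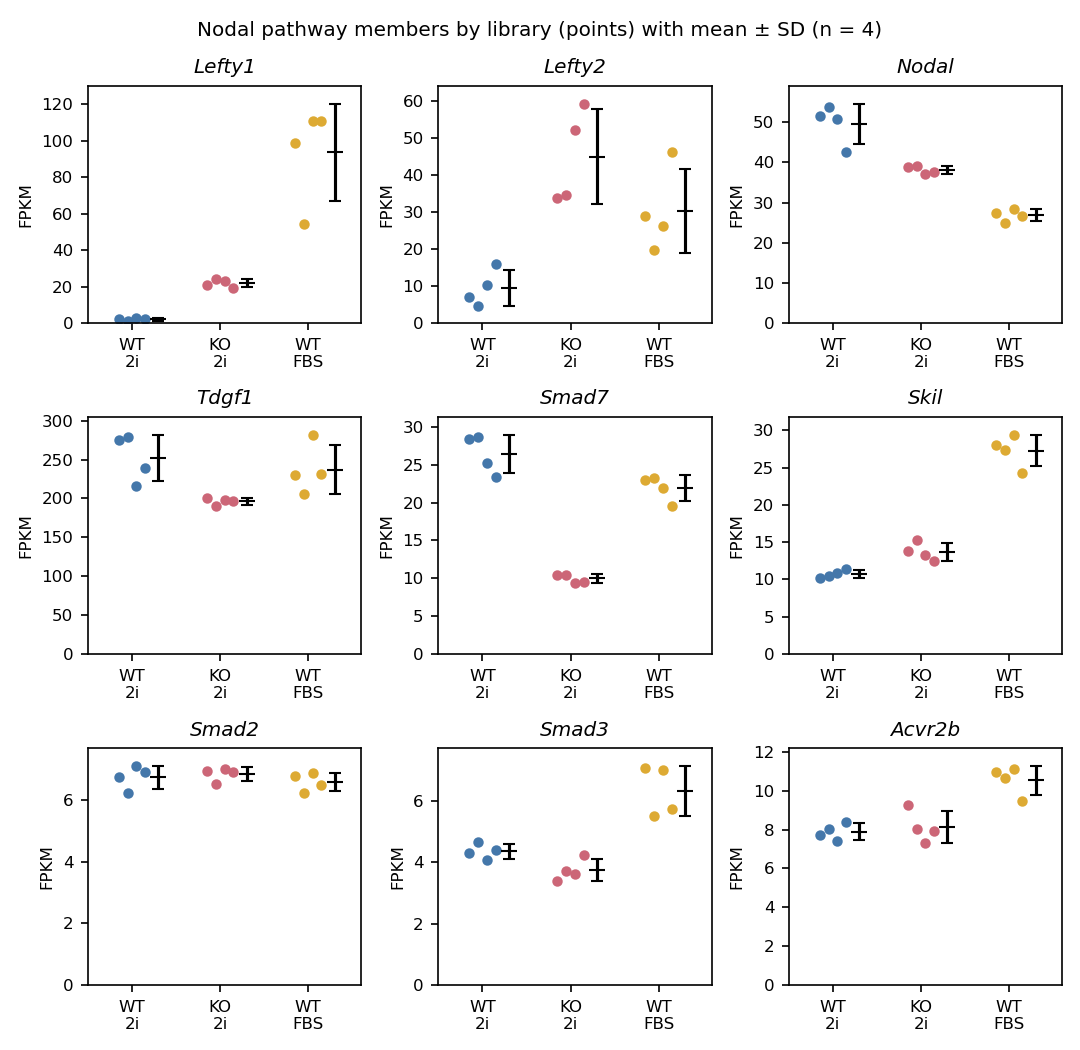
FPKM (vertical axis, from 0) of the 9 members in wild type in 2i (blue), knockout in 2i (red) and wild type in FBS (yellow); points are libraries in the order of replicates 1 to 4 and black bars are mean ± SD (n = 4). Lefty1 is near 0 in wild type in 2i, Smad7 is lowest in the knockout, and Smad2 overlaps across the 3 groups.

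The knockout was first compared with wild type, both in 2i, to ask what differs when Tfcp2l1 is disrupted. In the knockout the 2 Lefty genes and Skil rose, and Nodal, Tdgf1 and Smad7 fell. Smad2, Smad3 and Acvr2b did not pass the test. These 6 of 9 members called compare with 45.3% of all genes tested, of which 24.0% rose and 21.4% fell; groups did not overlap for 44.1% of all genes. The median absolute log2 change was 0.35 for the members and 0.17 for all genes tested. Because the members were chosen with earlier results of these data known, neither comparison shows that the pathway changed more than other genes.

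In an exact two-sided permutation test of each member, the 6 called members had p = 0.0286, the smallest that 70 splits of 8 libraries allow, and Smad3 had 0.0571. Groups that do not overlap always give that smallest p, and they did not overlap for 44.1% of all genes tested. The permutation p of the 6 therefore says no more than that their groups did not overlap.

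The second comparison set wild type in 2i against wild type in FBS. In 2i, Lefty1, Lefty2, Skil, Smad3 and Acvr2b were lower and Nodal and Smad7 were higher than in FBS, while Tdgf1 and Smad2 did not pass. The 7 of 9 members called compare with 72.4% of all genes, of which 37.1% were higher and 35.3% lower in 2i, and groups did not overlap for 62.5%. The median absolute log2 difference was 0.45 for the members and 0.35 for all genes. The limit set by the choice of members holds for these shares too. The 2 comparisons share the wild-type libraries in 2i, so their results are not independent of each other. The knockout in 2i was also set against wild type in FBS, only to order the 3 levels of each member; there genotype and medium differ together, and 7 of 9 members and 66.6% of all genes were called (34.7% higher and 31.9% lower in the knockout), with groups that did not overlap for 62.8%.

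**Figure D2:**
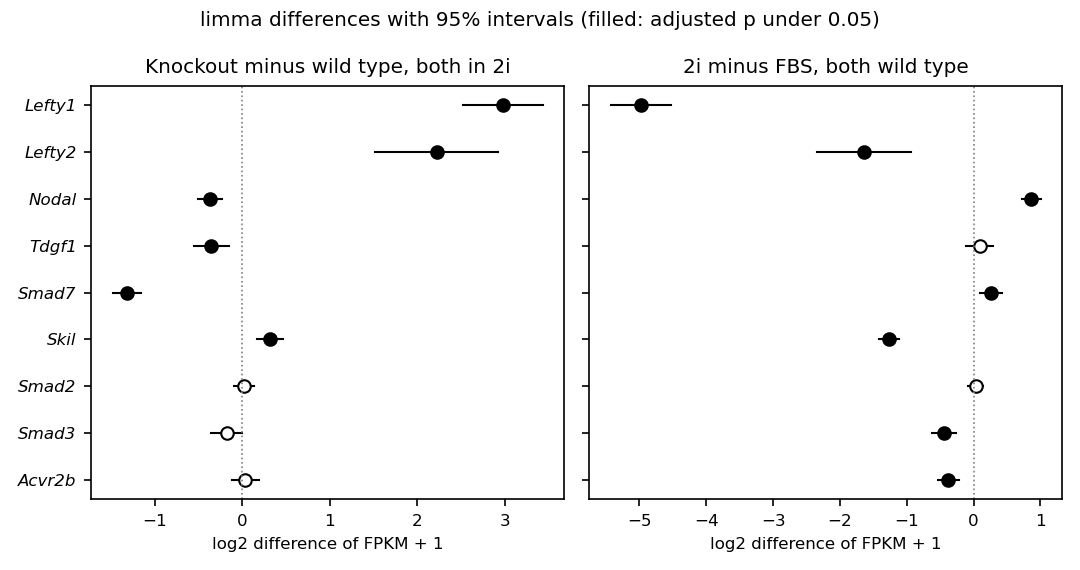
log2 differences of FPKM + 1 (horizontal axis) from limma for the 9 members, with 95% intervals; filled points have an adjusted p under 0.05. Lefty1 stands at 2.98 in the knockout comparison and at -4.97 in 2i against FBS.

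Lefty1, which blocks Nodal outside the cell, was nearly silent in wild type in 2i. It stood at 2.20, 1.11, 2.49 and 1.99 FPKM in replicates 1 to 4 of wild type in 2i, at 21.1, 24.0, 23.3 and 19.2 in the knockout and at 98.7, 54.3, 110.7 and 110.9 in FBS. No library of any group overlapped another group, and the low value in FBS, replicate 2, still lay above every library in 2i. The mean was 1.95 ± 0.594 FPKM (SD, n = 4) in wild-type 2i cells and 21.9 ± 2.21 in knockout cells, which is 11.2 times as high (log2 change 2.98, SE 0.21, limma adjusted p = 5.48e-07). Ranked by log2 change, this was the 4th highest of 12329 genes. In FBS the mean was 93.7 ± 26.8 FPKM, 48.0 times that in 2i (log2 difference of 2i minus FBS -4.97, SE 0.21, limma adjusted p = 7.29e-10), and only 1 tested gene lay lower in 2i relative to FBS on that scale. The knockout level was 23.4% of that in FBS (log2 difference -1.998, limma adjusted p = 3.2e-06). The order was thus wild type in 2i, knockout in 2i, then FBS, with both steps past the test. With the mean level of the 20 fibroblast markers in the model, the knockout change of Lefty1 was 2.92 (SE 0.39, limma adjusted p = 0.000778).

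Lefty2, the second secreted Lefty inhibitor, rose in the knockout too but varied more between libraries. It stood at 6.97, 4.57, 10.2 and 15.9 FPKM in replicates 1 to 4 of wild type in 2i, at 33.8, 34.6, 52.2 and 59.3 in the knockout and at 29.0, 19.8, 26.2 and 46.3 in FBS. Wild type in 2i lay below every other library, while the knockout and FBS libraries overlapped, and replicate 4 was the highest library in each group. The mean went from 9.41 ± 4.89 FPKM (SD, n = 4) in wild type to 45.0 ± 12.8 in the knockout, 4.78 times as high (log2 change 2.22, SE 0.33, limma adjusted p = 0.000179). In FBS it was 30.3 ± 11.3 FPKM, 3.22 times that in 2i (log2 difference of 2i minus FBS -1.64, limma adjusted p = 0.000527). The knockout and FBS did not differ by the test, with a log2 difference of 0.58 and a 95% interval from -0.13 to 1.28 (limma adjusted p = 0.133). Without FBS replicate 4 the difference was 0.80 and passed (limma adjusted p = 0.0498). With the replicate number as a block it was 0.58 and passed too (limma adjusted p = 0.00421). With the fibroblast marker level in the model it was -0.70 (limma adjusted p = 0.388).

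The fibroblast markers and Lefty2 ranked the knockout libraries in the same order. They did so in wild type in 2i except for replicates 1 and 2, and this likeness was not tested. The mean log2 level of the markers was 2.79, 2.91, 3.18 and 3.33 in replicates 1 to 4 of wild type in 2i, 3.48, 3.69, 3.85 and 4.13 in the knockout, and 3.07, 2.81, 2.88 and 2.70 in FBS. Replicate 4 was highest for the markers in both 2i groups and lowest in FBS, where Lefty2 was highest in that same library. Between the media, 10 of the 20 markers were higher and 6 lower in 2i than in FBS, so their mean joins opposite moves there. With the marker level in the model, the knockout change of Lefty2 was 1.20 (SE 0.495, limma adjusted p = 0.126) and no longer passed, whereas the difference of 2i minus FBS was -1.90 (limma adjusted p = 0.000109).

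**Figure D3:**
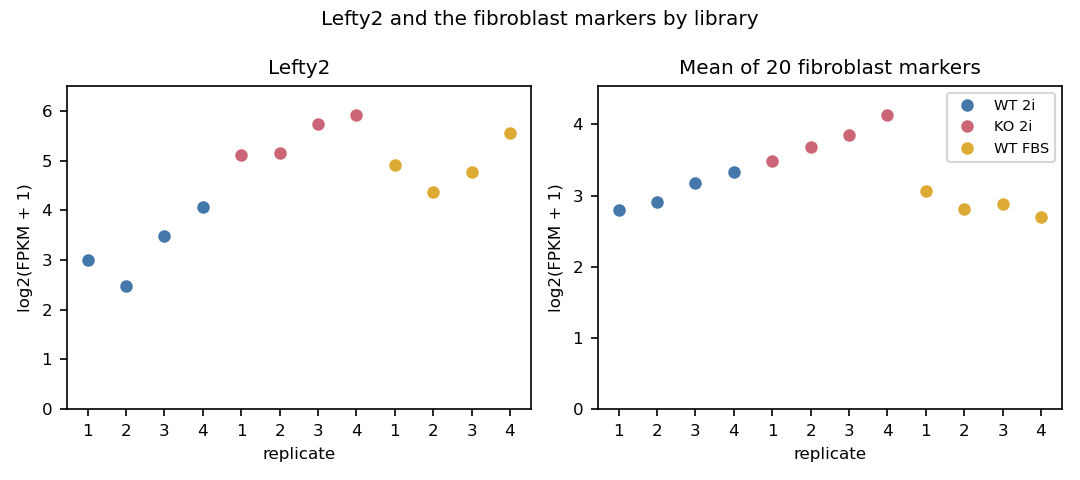
log2(FPKM + 1) of Lefty2 (left) and the mean of 20 fibroblast markers (right), by library, in wild type in 2i (blue), knockout in 2i (red) and FBS (yellow); horizontal axes give the replicate within each group. The markers are highest in knockout replicate 4, at 4.13, and Lefty2 is high in FBS, up to 5.56, where the markers are between 2.70 and 3.07.

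The balance of the 2 Lefty genes differed between the groups. Lefty1 made up 11.2% to 24.0% of the summed Lefty1 and Lefty2 FPKM in wild-type 2i cells, 24.4% to 41.0% in knockout cells and 70.5% to 80.9% in FBS. Lefty2 was thus the more abundant transcript in all 8 libraries in 2i and Lefty1 in all 4 in FBS, and every knockout share lay above every wild-type share in 2i. The summed level was 11.4 ± 5.20 FPKM in wild-type 2i cells, 66.9 ± 11.9 in knockout cells and 124.0 ± 35.5 in FBS (SD, n = 4 each). The 2 transcripts are alike in part: 17.9% of the 50-base windows of Lefty1 occur in Lefty2 and 11.6% of those of Lefty2 in Lefty1 or one further transcript (GENCODE vM21), and the division of reads between them by the authors' counting was not given. For Lefty1 in wild type in 2i the authors' lower bound lay 25.6% to 30.7% below the value. Their upper bound lay below the value itself in 7 of the 12 libraries for Lefty1 and in 6 for Lefty2. The same held in 10 libraries for Nodal and in all 12 for Tdgf1, so values and bounds do not match there.

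**Figure D4:**
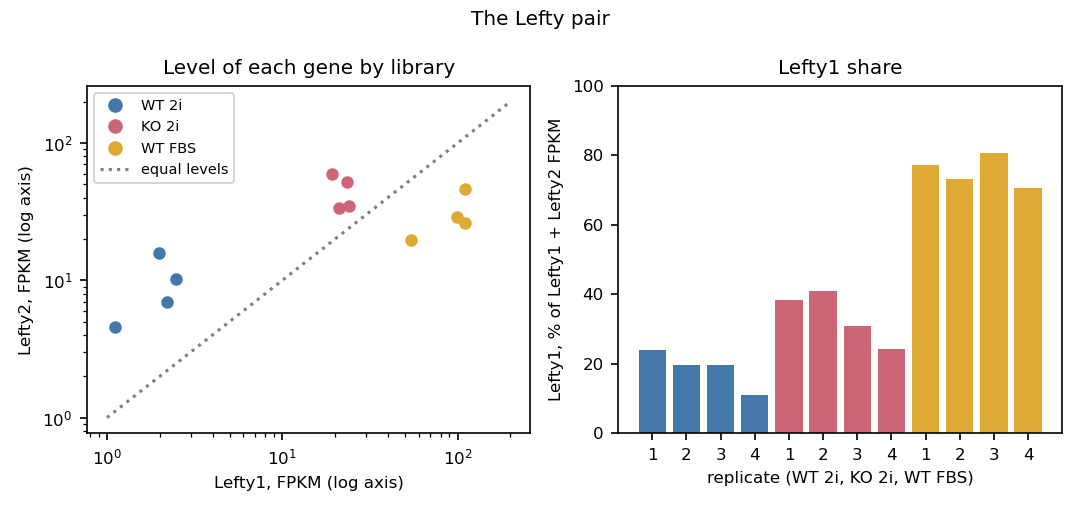
Left, FPKM of Lefty1 against Lefty2 on log axes for the 12 libraries, with a dotted line of equal levels; right, Lefty1 as a percentage of the summed FPKM of both genes, by replicate, in wild-type 2i (blue), knockout (red) and FBS (yellow) libraries. The share stays at or under 41.0% in 2i and at or over 70.5% in FBS.

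The 2 Lefty genes are neighbours. In the deposited table (mm9) Lefty2 spans 182823250 to 182829233 and Lefty1 182865170 to 182868532 on chromosome 1, with 35.9 kb between them. Within 250 kb on either side, 10 other genes were tested, of which 2 rose and 3 fell in the knockout, and 5 were higher and 3 lower in 2i than in FBS, so 5 and 8 of 10 were called against 45.3% and 72.4% of all genes.

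Nodal, the ligand, moved opposite to its Lefty inhibitors. It stood at 51.6, 53.9, 50.7 and 42.5 FPKM in replicates 1 to 4 of wild type in 2i, at 38.8, 39.0, 37.1 and 37.6 in the knockout and at 27.3, 25.0, 28.4 and 26.8 in FBS (NM_013611; mm9, chromosome 10, 60880720 to 60888085). The 3 groups did not overlap. The knockout mean, 38.1 ± 0.911 FPKM, was 76.8% of the wild-type mean of 49.7 ± 4.98 (SD, n = 4; log2 change -0.37, SE 0.07, limma adjusted p = 0.00074). The level in 2i was 1.85 times that in FBS, 26.9 ± 1.44 FPKM (log2 difference 0.86, limma adjusted p = 1.24e-07), and the knockout also lay above FBS (0.49, limma adjusted p = 2.63e-05). With the fibroblast marker level in the model the knockout change was -0.22 and did not pass (limma adjusted p = 0.216). Nodal was 2.38 to 9.48 times the summed Lefty level in wild type in 2i, 0.479 to 0.707 times in the knockout and 0.170 to 0.337 times in FBS. The ligand transcript thus exceeded the inhibitors' in all 4 wild-type libraries in 2i and in none of the other 8.

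Tdgf1, the co-receptor gene, was the most abundant member in every group. It stood at 275.3, 278.5, 216.3 and 239.6 FPKM in replicates 1 to 4 of wild type in 2i, at 201.1, 190.4, 198.0 and 196.7 in the knockout and at 229.9, 206.0, 281.1 and 231.9 in FBS (NM_011562; chromosome 9, 110842112 to 110848662). The knockout libraries were all below the other 8, while the wild-type groups overlapped. The mean fell from 252.4 ± 29.8 to 196.5 ± 4.52 FPKM (SD, n = 4; log2 change -0.35, SE 0.09, limma adjusted p = 0.00812), and it was 237.2 ± 31.5 in FBS. Wild type in 2i and in FBS did not differ by the test (log2 difference 0.09, 95% interval -0.11 to 0.29, limma adjusted p = 0.393). The knockout lay below FBS by the test (log2 difference -0.26, limma adjusted p = 0.0241), but not without knockout replicate 2 (0.0561), FBS replicate 3 (0.0711) or after quantile normalization (0.0832). With the fibroblast marker level in the model the knockout changes did not pass, against wild type in 2i (log2 change -0.21, limma adjusted p = 0.445) or against FBS (-0.08, 0.792). Of the 50-base windows of Tdgf1, 12.5% also occur in the pseudogene Tdgf1-ps1.

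Acvr2b, a type II activin receptor, differed with the medium. It stood at 7.72, 8.02, 7.39 and 8.41 FPKM in replicates 1 to 4 of wild type in 2i, at 9.24, 8.05, 7.31 and 7.90 in the knockout and at 10.9, 10.7, 11.1 and 9.45 in FBS (NM_007397; chromosome 9, 119311619 to 119342624). All 4 FBS libraries lay above all 8 in 2i. The mean in 2i was 7.88 ± 0.433 FPKM and in FBS 10.5 ± 0.754 (SD, n = 4; log2 difference of 2i minus FBS -0.38, SE 0.07, limma adjusted p = 0.000374). For the knockout, with a mean of 8.13 ± 0.809 FPKM, the change was 0.04, with a 95% interval from -0.12 to 0.19 (limma adjusted p = 0.708). The knockout lay below FBS (log2 difference -0.34, limma adjusted p = 0.000976; -0.30, SE 0.157 and adjusted p 0.163 with the fibroblast marker level in the model).

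Smad2 and Smad3, which carry the signal to the nucleus, behaved unlike each other. Smad2 ranged from 6.22 to 7.08 FPKM in wild type in 2i, from 6.51 to 6.99 in the knockout and from 6.22 to 6.85 in FBS, and the 3 groups overlapped. Its log2 change was 0.02 in the knockout (95% interval -0.10 to 0.13, limma adjusted p = 0.788) and 0.03 for 2i minus FBS (-0.09 to 0.14, limma adjusted p = 0.637). Smad3 stood at 4.29, 4.66, 4.07 and 4.39 FPKM in replicates 1 to 4 of wild type in 2i, at 3.39, 3.70, 3.61 and 4.25 in the knockout and at 7.05, 5.51, 7.01 and 5.73 in FBS (NM_016769; chromosome 9, 63494574 to 63605801). The FBS libraries lay above all others, and the 2 groups in 2i overlapped through knockout replicate 4. The difference of 2i minus FBS was -0.45 (SE 0.08, limma adjusted p = 0.000337; means 4.35 ± 0.248 and 6.32 ± 0.818 FPKM, SD, n = 4). The knockout mean was 3.74 ± 0.363 FPKM (log2 change -0.18, 95% interval -0.36 to 0.002, limma adjusted p = 0.0985; 0.0401 after quantile normalization), and the knockout lay below FBS (-0.63, limma adjusted p = 2.61e-05). The ratio of Smad2 to Smad3 was 1.33 to 1.74 in wild-type 2i cells, 1.63 to 2.05 in knockout cells and 0.959 to 1.13 in FBS.

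Smad7, the intracellular inhibitor, was lowest in the knockout. It stood at 28.5, 28.6, 25.3 and 23.3 FPKM in replicates 1 to 4 of wild type in 2i, at 10.5, 10.5, 9.43 and 9.53 in the knockout and at 23.0, 23.2, 21.9 and 19.5 in FBS (NM_001042660). The knockout libraries lay far below the other 8, and each wild-type library in 2i lay above every FBS library, by a narrow margin. The mean in the knockout, 9.98 ± 0.579 FPKM, was 37.8% of that in wild type in 2i, 26.4 ± 2.57 (SD, n = 4; log2 change -1.32, SE 0.07, limma adjusted p = 9.5e-08; -1.14 and 0.000224 with the fibroblast marker level in the model). It was 45.5% of that in FBS, 21.9 ± 1.72 FPKM (log2 difference -1.06, limma adjusted p = 1.09e-07). The level in 2i was 1.20 times that in FBS (log2 difference 0.26, limma adjusted p = 0.00742). Smad7, like Tdgf1, thus lay lower in the knockout than in either wild-type group, whereas Lefty1, Nodal and Skil in the knockout lay between wild type in 2i and wild type in FBS. The knockout mean of Smad3 was also below both, but its libraries overlapped those of wild type in 2i.

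Skil, which encodes the Smad-binding repressor SnoN, was lowest in wild type in 2i. It stood at 10.1, 10.5, 10.9 and 11.4 FPKM in replicates 1 to 4 of that group, at 13.8, 15.2, 13.2 and 12.5 in the knockout and at 28.0, 27.4, 29.4 and 24.3 in FBS (chromosome 3, 30993980 to 31021845). The 3 groups did not overlap. The mean rose from 10.7 ± 0.542 to 13.7 ± 1.17 FPKM in the knockout (SD, n = 4; log2 change 0.32, SE 0.07, limma adjusted p = 0.00236), but did not pass with the fibroblast marker level in the model (0.29, limma adjusted p = 0.151). In FBS it was 27.3 ± 2.14 FPKM, 2.54 times the level in 2i (log2 difference of 2i minus FBS -1.27, limma adjusted p = 6.41e-09) and above the knockout (-0.95, limma adjusted p = 1.45e-07).

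The Skil level is the sum of 3 RefSeq transcripts, of which NM_001271772 was at or near 0 in every library. NM_001039090 stood at 7.12 to 7.95 FPKM in wild-type 2i cells, 10.5 to 12.3 in knockout cells and 18.4 to 22.1 in FBS. NM_011386 stood at 2.87 to 3.90, 1.97 to 3.37 and 5.96 to 7.78 FPKM in the same order, and overlapped between the groups in 2i. Its share of Skil was 27.2% to 34.2% in wild-type 2i cells and 15.8% to 24.3% in knockout cells, without overlap (p = 0.0286 by an exact permutation test, two-sided, the lowest value 70 splits can give), and 24.4% to 27.8% in FBS. This comparison was chosen after the values were seen, and the shares depend on how the authors' software divided reads between transcripts of the same locus.

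The lists used held 52 other genes of the pathway, of which 44 were tested. These lists too were chosen with earlier results of these data known. In the knockout 18 of the 44 rose and 6 fell, where 24.0% of all genes rose and 21.4% fell. Between the media 13 were higher and 19 lower in 2i than in FBS, where 37.1% of all genes were higher and 35.3% lower. The counts by role that follow stand against 45.3% of all genes called in the knockout and 72.4% between the media. Their median log2 change was 0.12 in the knockout (0.01 for all genes tested) and their median difference of 2i minus FBS -0.01 (0.01 for all genes).

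**Figure D5:**
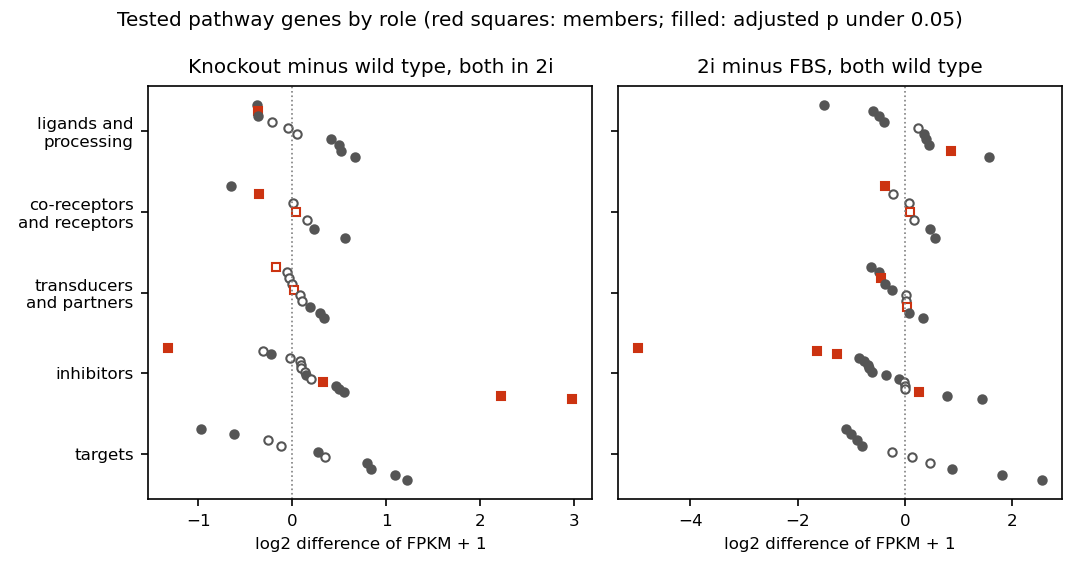
log2 differences of FPKM + 1 (horizontal axis) for the tested genes of each role, with members as red squares and other genes as grey points; filled symbols have an adjusted p under 0.05. Among the inhibitors, Smad7 lies furthest to the left and the 2 Lefty genes furthest to the right in the knockout.

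Among ligands and processing enzymes other than Nodal, 4 of 9 tested rose in the knockout and 2 fell. The rises held the 3 TGF-beta ligands: Tgfb1 went from 1.83 ± 0.279 to 2.76 ± 0.238 FPKM, Tgfb2 from 1.20 ± 0.213 to 2.12 ± 0.409 and Tgfb3 from 1.35 ± 0.178 to 2.36 ± 0.295 (SD, n = 4). None of the 3 passed with the fibroblast marker level in the model: the log2 change of Tgfb1 went from 0.41 to 0.35 (limma adjusted p = 0.108), that of Tgfb2 from 0.50 to 0.05 (0.806) and that of Tgfb3 from 0.51 to 0.11 (0.605). Gdf3, a ligand of ESCs, was more abundant and did not pass, at 47.4 ± 1.91 and 49.0 ± 1.88 FPKM. Against FBS, 4 of the 9 were higher in 2i and 4 lower: the convertase gene Pcsk6 stood at 30.1 ± 2.40 FPKM in 2i and 9.58 ± 1.44 in FBS (log2 difference 1.56), and Gdf1, which shares its transcript with Cers1 so that its reads are uncertain, at 0.50 ± 0.147 and 3.29 ± 0.499 (-1.51). Gdf1 reached at most 0.719 FPKM in wild type in 2i and 0.619 in the knockout. It was therefore tested only because of the FBS libraries, where it was high. Tgfb1 was lower in 2i as well, at 1.83 against 3.29 ± 0.0724 FPKM, and Tgfb2 did not pass, at 1.20 and 0.860 ± 0.154 (log2 difference 0.24, limma adjusted p = 0.0542), though it did without wild type in 2i replicate 1 (0.0192) or FBS replicate 1 (0.0303).

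Among receptors other than the members, 2 of 5 tested rose in the knockout and 1 fell. Acvr1b, the type I receptor that Nodal uses, fell from 14.8 ± 1.82 to 9.05 ± 0.679 FPKM (SD, n = 4; log2 change -0.65, limma adjusted p = 0.000149; -0.49 and 0.0665 with the fibroblast marker level in the model). The TGF-beta receptor Tgfbr2 rose from 1.46 ± 0.300 to 2.67 ± 0.852 FPKM, but its log2 change of 0.56 became -0.05 with the marker level in the model. The type II receptor Acvr2a rose from 3.00 ± 0.364 to 3.67 ± 0.230 FPKM (limma adjusted p = 0.0263), but had adjusted p from 0.0587 to 0.0798 without wild-type replicate 1 or 2 or knockout replicate 1, 3 or 4. Tgfbr1 did not pass, at 5.83 ± 1.38 and 6.53 ± 0.406 FPKM, though it did without wild type in 2i replicate 3 (0.00903). Against FBS, Acvr1b (9.79 ± 1.04 FPKM in FBS, log2 difference 0.55) and Tgfbr3 (2.39 ± 0.119 in 2i and 1.45 ± 0.119 in FBS) were higher in 2i. Tgfbr1, at 5.02 ± 0.301 FPKM in FBS, did not pass there, though it did without wild type in 2i replicate 2 (limma adjusted p = 0.0384). Tgfbr2, at 1.88 ± 0.368 FPKM in FBS, did not pass either (0.185), but did with the marker level in the model (log2 difference of 2i minus FBS -0.38, limma adjusted p = 0.0069).

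Of Smad4 and 7 other partners of the Smads, 3 rose in the knockout, none fell and 5 did not pass. The coactivators Ep300, from 16.2 ± 0.714 to 20.2 ± 0.987 FPKM, and Crebbp, from 6.56 ± 0.499 to 8.51 ± 0.434, rose, as did the helix-loop-helix factor Tcf3, from 46.0 ± 2.16 to 52.4 ± 1.55 (SD, n = 4). The log2 change of Ep300 was 0.30 both without and with the fibroblast marker level in the model (SE 0.05 and 0.094, limma adjusted p = 0.0501). That of Crebbp was 0.33 and then 0.36 (0.0565), and that of Tcf3 0.18 and then 0.17 (0.15), so these calls were lost with changes of about the same size and larger errors. Drap1, a corepressor, did not pass, at 90.4 ± 1.28 and 90.0 ± 1.74 FPKM. Against FBS, 2 of the 8 were higher in 2i and 4 lower, among the latter Ep300 (23.3 ± 1.05 FPKM in FBS), Tcf3 (54.7 ± 0.961) and the ubiquitin ligase Trim33 (13.7 ± 1.20 in 2i and 18.0 ± 1.32 in FBS). With the highest entry per symbol Tcf3 had similar differences, 0.17 in the knockout and -0.21 for 2i minus FBS, but an SE of 0.354, and did not pass (limma adjusted p = 0.727 and 0.606). Smad4 itself did not pass, at 19.7 ± 1.49 and 19.5 ± 1.66 FPKM.

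Among inhibitors other than the members, 4 of 12 tested rose in the knockout and 1 fell. Ski, the closest relative of Skil, rose from 19.1 ± 1.79 to 26.8 ± 1.14 FPKM (SD, n = 4; log2 change 0.47), and the phosphatase gene Ppm1a from 35.1 ± 0.524 to 51.8 ± 3.92 (0.55). Fstl3, which binds activins, rose from 1.61 ± 0.268 to 2.71 ± 0.409 FPKM. With the fibroblast marker level in the model, Ski and Ppm1a passed (limma adjusted p = 0.0148 and 0.00329) and Fstl3 did not (log2 change 0.12, 0.728). Tgif1, a homeobox repressor, stood at 86.3 ± 4.12 and 91.9 ± 2.21 FPKM and did not pass (0.0832), though it did without wild type in 2i replicate 2 (0.0197), after quantile normalization (0.0152), as TPM (0.0337) and with the highest entry per symbol (0.0101). Of the 12, 7 were lower in 2i than in FBS and 2 higher. Ppm1a (60.6 ± 4.23 FPKM in FBS), Fkbp1a, whose product binds the type I receptors (106.1 ± 5.32 in 2i and 170.0 ± 9.51 in FBS), and Tgif2 (24.4 ± 2.43 and 40.0 ± 1.45) were among the lower ones. Nomo1, a Nodal modulator, did not pass, at 56.3 ± 2.63 and 56.2 ± 1.28 FPKM.

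Genes known as Nodal or TGF-beta targets in embryos or cell lines did not move one way. Of 15 in the list, 5 (Mixl1, Foxa2, Lhx1, Sox17 and Cer1) were under the filter. Of 10 tested, 5 rose and 2 fell in the knockout, and 3 were higher and 4 lower in 2i than in FBS. Gsc, a homeobox gene of the streak, fell in the knockout from 8.61 ± 1.24 to 3.93 ± 0.736 FPKM (SD, n = 4; log2 change -0.97, limma adjusted p = 4.32e-05) and stood at 0.643 ± 0.165 in FBS (2i minus FBS 2.55, limma adjusted p = 1.64e-09). The streak gene T rose from 0.634 ± 0.199 to 2.84 ± 0.775 FPKM (1.22, limma adjusted p = 0.000396), and Id1, better known as a BMP target, from 11.3 ± 0.929 to 25.1 ± 2.82 (1.09). T stood at 0.8875 FPKM or less in wild type in 2i, so it passed the filter through the other groups. With the fibroblast marker level in the model, Id1, T and Gsc kept adjusted p under 0.05 (limma, 0.0146, 0.0186 and 0.0107). Cdkn1a, a cell cycle inhibitor, did not pass in the knockout, at 134.9 ± 8.43 and 124.5 ± 13.6 FPKM, and was lower in FBS, at 38.5 ± 7.2. Ccn2, a matrix-associated protein gene, was also higher in 2i, at 161.5 ± 21.0 against 86.9 ± 7.0 FPKM. Bhlhe40, a transcriptional repressor, did not pass against FBS (44.2 ± 19.6 and 29.1 ± 1.90 FPKM), but did without wild type in 2i replicate 3 (limma adjusted p = 0.000452).

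Genes whose levels ran most like a member's over the 12 libraries were sought by Pearson's r of log2(FPKM + 1), a description with no test, since the libraries share groups. For Lefty1 they were Kctd12b (r = 0.994), B3gnt7 (0.991), Ldlrad3 (0.986), Klhl13 (0.985) and the Notch ligand gene Dll1 (0.984). Kctd12b was near the floor, averaging 0.037 FPKM in wild-type 2i cells, 0.630 in knockout cells and 1.35 in FBS. It may thus have passed the filter only through FBS, where it was highest. Dll1 averaged 1.04 FPKM in wild-type 2i cells, 6.26 in knockout cells and 14.8 in FBS, the same order as Lefty1. For Lefty2 they were Urgcp (0.932), Vim (0.920), Rragd (0.914), Ccnd2 (0.910) and Arhgdib (0.906), and Vim, an intermediate filament gene, is 1 of the 20 fibroblast markers. For Nodal they were Plekhf1 (0.985), Macrod1 (0.980), Glb1 (0.980), Sohlh2 (0.978) and B3gnt5 (0.978), whose means were all highest in wild type in 2i and lowest in FBS. For Smad7 they were the protease gene St14 (0.984), Chka (0.983), Mymx (0.983), Slco2a1 (0.980) and Nek6 (0.974), with St14 averaging 39.2, 11.2 and 27.4 FPKM. Among the members themselves, r with Lefty1 was -0.94 for Nodal, 0.91 for Skil, 0.74 for Acvr2b, 0.73 for Lefty2 and 0.57 for Smad3. It was -0.30 for Smad7, -0.25 for Tdgf1 and -0.09 for Smad2.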

How the data were processed

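RNA was extracted with Trizol and sequenced from TruSeq libraries, per the labels' protocols. The authors deposited 1 table of FPKM for 30761 transcript entries on mm9 in 12 libraries; the submitters' processing notes name CASAVA 1.8.2 and Cufflinks, whose version is not given in the sources used here. FPKM give no counts, so depth is unknown. The table holds a lower and an upper bound for each value. For Tdgf1 the upper bound lay below the value in all 12 libraries, and the bounds are not given here as counting intervals. Entries of the same symbol were summed (23496 genes, 362 entries without a symbol kept under their own identifier, 7 genes with failed estimates left out).

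The 12329 genes that reached 1 FPKM in 4 or more libraries were fitted as log2(FPKM + 1) with limma 3.58.1 (R 4.3.3; 1 mean per group over all 12 libraries, trended variance) and Benjamini-Hochberg adjustment, called under 0.05. Means, exact permutation tests and sequence searches used Python 3.11.15. The scripts were tested on simulated data.

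The members and gene lists were chosen with earlier results of these data known. Beyond the members, the text names per role list and comparison up to 3 genes with the smallest adjusted p and the highest-expressed gene that did not pass, and for 4 members the 5 genes of highest r among those with an SD of at least 0.5. The Skil transcripts and the neighbours of the Lefty genes were chosen after values were seen. Alternatives were other scalings, pseudocounts and filters, a fit of the 8 libraries compared, the highest entry per symbol, the fibroblast marker level as a covariate, the replicate number as a block, and leaving out each library. The result for 1 gene is not reported here.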

Additional observations from a re-analysis of the deposited data

Results flagged for a closer look

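Smad2 in the knockout in 2i had 1 library apart from the others: replicate 2 stood at 6.51 FPKM, while the other 3 lay between 6.91 and 6.99. Of 27 groups of 4 libraries checked (9 members in 3 groups), this was the 1 flagged by its gap relative to the range of its group, and chance flags about 1 in 20. Without it the knockout still overlapped wild type in 2i (6.22 to 7.08 FPKM) but lay above FBS (6.22 to 6.85).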

How the results depend on the processing

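With the fibroblast marker level as a covariate, 1887 in place of 5589 genes were called in the knockout comparison, and 2 in place of 6 members (Lefty1 and Smad7 passed). The marker level did not overlap between wild type in 2i (2.79 to 3.33) and the knockout (3.48 to 4.13). Lost calls thus cannot be assigned to marker level or genotype. In that setting the SE of the knockout change grew from 0.209 to 0.394 for Lefty1 and from 0.093 to 0.167 for Tdgf1. That setting also turned the log2 change of Smad2 to -0.059 and of Tgfbr2 to -0.045 in the knockout, of Smad4 to -0.014 for 2i minus FBS, and, for the knockout minus FBS, of Smad2 to -0.051 and of Lefty2 to -0.701; the cause was not tested. Quantile normalization gave Smad2 -0.025 for 2i minus FBS and -0.014 for the knockout minus FBS, Drap1 0.052 in the knockout and Nomo1 -0.019; TPM scaling gave Drap1 0.019, and median-ratio scaling Nomo1 -0.012. None of these reversed values passed the test. Leaving out 1 library gave 4682 to 5843 genes called in the knockout comparison and 8405 to 8884 for 2i minus FBS, with 6 and 7 members throughout. It gave ranges of -0.013 to 0.041 for Smad2, -0.021 to 0.079 for Acvr2b and -0.015 to 0.006 for Drap1 in the knockout, and -0.025 to 0.028 for Nomo1 and -0.041 to 0.048 for Smad4 between media. No scaling moved the median of all genes by 0.1.

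Whether equal replicate numbers mark paired libraries is not known, and the main fit treated the libraries as unpaired. Same-numbered libraries had r of -0.03 to 0.258 in their deviations, over 0.1 in 5 of 12 pairs. In 13 of 24 cases a library matched best with its own number among the 4 of another group. Between wild type and knockout in 2i, r was 0.055, 0.258, 0.216 and 0.194 for replicates 1 to 4. With the replicate number as a block, 5567 and 8899 genes and 6 and 7 members were called in the 2 comparisons, and Lefty2 passed for the knockout minus FBS (0.58, limma adjusted p = 0.00421), as it did without FBS replicate 4 (0.80, 0.0498).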
